A study of Homo sapiens with 27 samples.

Results

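The comparison described here sets MV411 cells carrying CARM1 hairpin 2 against MV411 cells carrying a scramble hairpin, with 3 RNA-seq libraries in each group. These 6 libraries were taken by their column labels from the 27 libraries of the series, and all genes in the table were considered. MV411 is an established human acute myeloid leukaemia (AML) line of monocytic character with a KMT2A (MLL) rearrangement and an internal duplication in FLT3. The hairpins were delivered by lentivirus and expressed constitutively, and RNA was taken 3 days later. MV411 cells grew without added cytokine. The series also holds a second hairpin against CARM1 in MV411, named hairpin 1 here, and the same 3 groups in the AML lines MOLM13 and SKNO1, of which SKNO1 received 10 ng/mL GM-CSF. The question was which transcripts differ after loss of CARM1 in this line. Both groups carried a lentiviral hairpin, so neither is an uninfected control. The labels number the replicates of each group but do not say whether they came from separate cultures or infections, so the p-values measure only the spread between these libraries.

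CARM1, also named PRMT4, is an arginine methyltransferase that places asymmetric dimethyl marks on histone H3 and on many other proteins, among them splicing factors and the SWI/SNF subunit SMARCC1. It is recruited to genes by the nuclear receptor coactivators NCOA1, NCOA2 and NCOA3. In myeloid cells it is known for methylating RUNX1 and for restraining differentiation. Background of this kind names what the genes do and is not a result of these libraries.

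Hairpin 2 libraries held 25063577 to 39718356 expected counts and scramble libraries 30993021 to 39182298. No replicates were near-identical. All 11 markers fixed for a monocytic KMT2A-rearranged line were tested, with a summed level of 1100 to 1710 CPM in scramble and 1750 to 2340 in hairpin 2. The markers split. LYZ, CD4, PTPRC and ITGAX were higher in hairpin 2 at an adjusted p under 0.05, FLT3, HOXA10 and MPO were lower, and the rest did not pass. LYZ had the highest mean, 1170 CPM in hairpin 2 and 508 in scramble, while FLT3 was at 218 and 351. CPM (counts-per-million) values are counts scaled to library size by the TMM method, and triplets are given in the order of replicates 1, 2 and 3. No T cell, erythroid, fibroblast or mast cell marker passed the filter on low counts. CD3D, CD3G and CD2 had no count in any of the 6 libraries. B cell markers summed to 3.73 to 6.26 CPM in hairpin 2 and to 1.65 to 2.20 in scramble, NK cell markers to 10.9 to 15.2 and 15.9 to 19.5, epithelial markers to 9.49 to 12 and 12.5 to 14.4, and megakaryocyte markers to 1.68 to 2.11 and 4.54 to 5.41. The part of these cell type differences in the results was not tested. Mitochondrial ribosomal RNA took 31.1% ± 1.91 of counts in hairpin 2 and 26.3% ± 1.47 in scramble (SD, n = 3 each). An exact two-sided permutation test gave p = 0.1 for that share, the smallest p that 3 against 3 libraries allow. Scramble replicate 2 stood low among the scramble libraries for cell division genes, as described below, and the hairpin 2 libraries were also uneven for them.

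The targeted gene was low in every hairpin 2 library. CARM1 (chr19:10871513-10923070, plus strand, GRCh38) was at 2.47, 3.51 and 2.37 CPM in the hairpin 2 libraries and at 21.5, 21.2 and 22.4 CPM in the scramble libraries, from 75, 95 and 90 counts and 690, 949 and 928 counts. The groups were far apart, and the scramble libraries were close to each other. Hairpin 2 left 12.8% ± 2.92 of the scramble level (SD, n = 3), from 10.9% to 16.2%. The log2 fold change was -2.97 ± 0.18 (standard error of the fit) with an adjusted p of 2.5e-05 in edgeR's quasi-likelihood test, and an exact permutation test of the CPM gave p = 0.1. Hairpin 1 left 26.0% ± 1.28, at 5.32, 5.77 and 5.83 CPM. The hairpins differed from each other by -1.02 ± 0.18 on the log2 scale (adjusted p = 0.00456), with all hairpin 2 libraries lower.

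**Figure D1:**
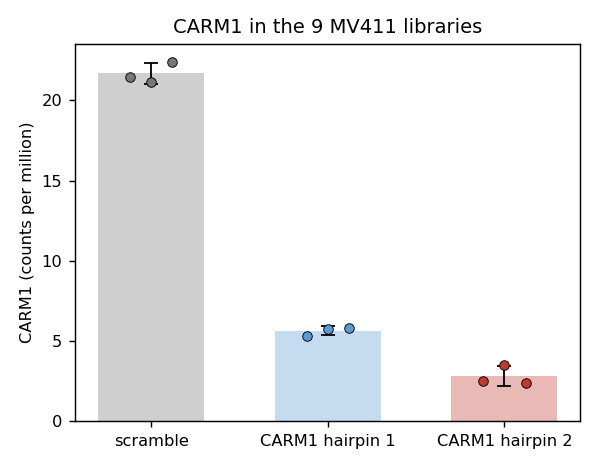
CARM1 in CPM (vertical axis) in the scramble, hairpin 1 and hairpin 2 libraries of MV411; points are libraries, bars are means of 3 and error bars are SD. The 3 hairpin 2 libraries lie between 2.37 and 3.51, below hairpin 1 and far below scramble.

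Of 17816 genes tested, 3313 (18.6%) passed an adjusted p of 0.05 between hairpin 2 and scramble. A total of 1493 genes (8.38%) were higher and 1820 (10.2%) lower, and 763 and 812 of these changed more than 2-fold. The median log2 fold change of all genes tested was 0.00105. Protein-coding genes passed in 23.1% of cases (1343 higher and 1674 lower of 13068) and long non-coding genes in 6.87% (97 higher and 107 lower of 2969). By level, 8.66% of genes with a mean log2 CPM under 0 passed, 20.9% between 0 and 3, 23.5% between 3 and 6 and 18.6% above 6. The libraries of the groups did not overlap at 2583 genes that were higher (14.5%) and 2864 that were lower (16.1%). The counts depended on single libraries: without hairpin 2 replicate 1 they were 811 higher and 905 lower, and without scramble replicate 3 they were 935 and 1022.

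Other arginine methyltransferases and their cofactors had smaller changes than CARM1, downward in each case that passed. Of 14 tested members of that list, CARM1 included, none was higher and 6 were lower, with a median log2 fold change of -0.454. PRMT1, the enzyme behind most asymmetric arginine methylation, was at 99.98, 93.8 and 93.6 CPM in hairpin 2 and 131, 121 and 155 in scramble. The groups did not overlap, and the fall was 0.503 ± 0.13 (adjusted p = 0.0198). PRMT3, which methylates a ribosomal protein, fell by 0.72 ± 0.19, and PRMT7, the monomethylating enzyme, by 0.61 ± 0.16. PRMT5, the main symmetric methyltransferase, was at 32.9, 29.9 and 40.2 CPM against 54.8, 42.4 and 50.1 and fell by 0.51 ± 0.15. Its partner WDR77 fell by 0.63 ± 0.18. Each of these 5 calls was lost without scramble replicate 3, without hairpin 2 replicate 1 and with only the 6 libraries compared. CARM1 was then the 1 member lower. Without scramble replicate 1 the list had 3 members lower. PRMT2, PRMT6, PRMT9, FBXO11, NDUFAF7, CLNS1A, RIOK1 and COPRS did not pass, with log2 values between -0.62 and 0.41, of which RIOK1 passed with the replicate number as a block (adjusted p = 0.00734).

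Among 19 tested partners and substrates of CARM1, 3 were higher and 2 lower, where 8.38% and 10.2% of all genes were. The median was 0.0989. With only the 6 libraries compared, 0 were lower. NCOA3 (91.1, 82.2 and 116 CPM in hairpin 2, 55.3, 51.5 and 52.3 in scramble) was higher in each hairpin 2 library than in any scramble library. It rose by 0.87 ± 0.14 (adjusted p = 0.00226). NCOA2 rose by 0.66 ± 0.14 (adjusted p = 0.00888) and PIAS1, a SUMO ligase, by 0.38 ± 0.12 (adjusted p = 0.0426). NCOA1 was 0.36 ± 0.14 and did not pass. SMARCC1 was at 75.8, 65.0 and 68.6 CPM against 121, 86.8 and 96.5 and fell by 0.54 ± 0.14 (adjusted p = 0.025). The PIAS1 call was lost on leaving out any 1 of the 9 libraries, and the SMARCC1 call without scramble replicates 1 or 3 or hairpin 2 replicates 1 or 2.

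Among the well expressed coding genes with the largest rises were IGF1, C3, LRP1 and CHI3L1, and among those with the largest falls KIAA0101 and GPT2. IGF1, a growth factor, was at 269.5, 192 and 152 CPM in hairpin 2 and 14.4, 12.2 and 8.42 in scramble. Every hairpin 2 library stood more than 10-fold above the scramble libraries, with a log2 fold change of 4.13 ± 0.39 (adjusted p = 0.000197). C3, the central complement component, was at 79.5, 105 and 50.4 CPM against 4.02, 4.84 and 6.71 and rose by 3.91 ± 0.29 (adjusted p = 8.55e-05). LRP1, an endocytic receptor, was at 38.1, 72.0 and 16.2 CPM against 3.92, 7.25 and 3.84, uneven among hairpin 2 libraries but not overlapping. CHI3L1, a secreted chitinase-like protein of macrophages, was at 379.8, 306 and 169.7 CPM against 38.4, 58.0 and 30.3 and rose by 2.75 ± 0.34. SEMA6B, a semaphorin, rose by 2.81 ± 0.29, and CECR1 (adenosine deaminase 2) by 2.61 ± 0.29. KIAA0101, a PCNA-binding factor of replication forks, was the lowest in this ranking, which left out the replication-dependent histones. It was at 2.61, 1.07 and 2.94 CPM against 70.8, 30.9 and 52.3. It fell by 4.52 ± 0.41 (adjusted p = 0.000193). GPT2, a mitochondrial alanine transaminase, was at 13.2, 11.5 and 19.1 CPM against 87.4, 68.4 and 82.5 and fell by 2.44 ± 0.25 (adjusted p = 0.000232).

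**Figure D2:**
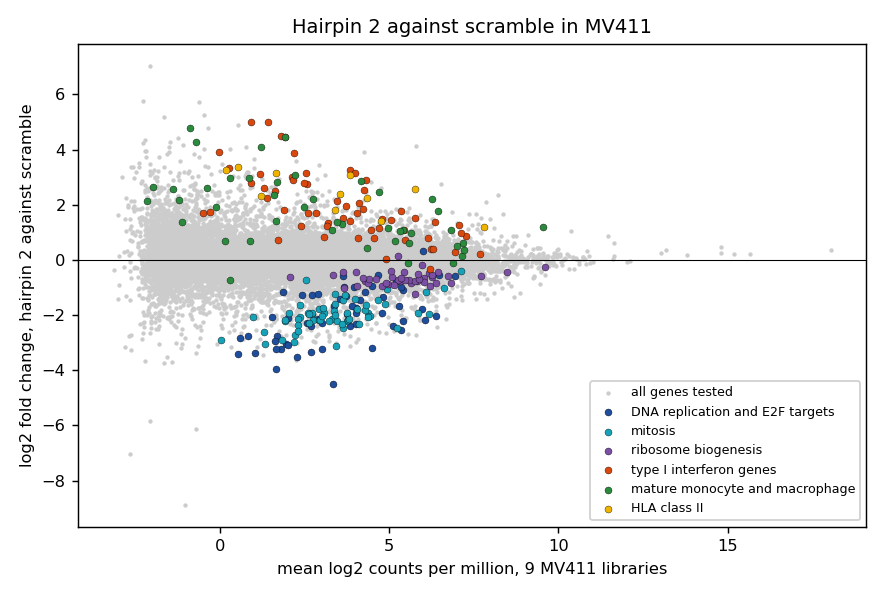
Log2 fold change of hairpin 2 against scramble (vertical axis) by mean log2 CPM over the 9 MV411 libraries (horizontal axis), with all 17816 tested genes in grey and 6 gene lists in colour. Replication, mitosis and ribosome biogenesis genes lie mostly below 0, and interferon, monocyte and HLA class II genes mostly above it.

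DNA replication genes fell almost as a block. Of 59 tested members of the replication and E2F target list, 56 were lower and none higher, with a median of -1.98. E2F factors switch these genes on before S phase through a short core motif, and mitotic genes carry a separate cell cycle element (CHR) bound by the DREAM and MuvB complexes. Promoters of the best ranked members that hold each motif are printed here because the members moved together. Each covers 250 bases before to 50 after the RefSeq gene start (GRCh38.p14), read on the gene's strand, with the motif in capitals (TTTNNCGC for E2F, TTTGAA or TTCGAA for CHR, either strand). The UHRF1 promoter lies at chr19:4909251-4909550, plus strand, and that of POLE at chr12:132687293-132687592, minus strand. The INCENP promoter lies at chr11:62123761-62124060, plus strand, and that of KIF18B at chr17:44947724-44948023, minus strand.
UHRF1: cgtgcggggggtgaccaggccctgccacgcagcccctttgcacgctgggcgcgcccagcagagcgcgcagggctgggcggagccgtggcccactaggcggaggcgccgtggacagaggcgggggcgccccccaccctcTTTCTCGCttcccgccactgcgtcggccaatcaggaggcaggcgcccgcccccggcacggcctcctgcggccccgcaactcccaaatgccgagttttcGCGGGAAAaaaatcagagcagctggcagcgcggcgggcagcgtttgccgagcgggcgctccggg
POLE: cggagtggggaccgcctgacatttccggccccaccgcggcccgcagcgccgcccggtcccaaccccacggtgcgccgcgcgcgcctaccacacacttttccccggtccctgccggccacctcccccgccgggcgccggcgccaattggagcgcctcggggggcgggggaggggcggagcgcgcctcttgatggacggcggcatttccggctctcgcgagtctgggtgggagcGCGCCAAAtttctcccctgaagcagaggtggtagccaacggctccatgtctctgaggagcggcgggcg
INCENP: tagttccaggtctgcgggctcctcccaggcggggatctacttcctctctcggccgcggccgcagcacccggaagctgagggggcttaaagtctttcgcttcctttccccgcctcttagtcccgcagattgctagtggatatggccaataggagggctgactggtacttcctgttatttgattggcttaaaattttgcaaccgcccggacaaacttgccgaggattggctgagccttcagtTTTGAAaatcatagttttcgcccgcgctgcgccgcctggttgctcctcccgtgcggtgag
KIF18B: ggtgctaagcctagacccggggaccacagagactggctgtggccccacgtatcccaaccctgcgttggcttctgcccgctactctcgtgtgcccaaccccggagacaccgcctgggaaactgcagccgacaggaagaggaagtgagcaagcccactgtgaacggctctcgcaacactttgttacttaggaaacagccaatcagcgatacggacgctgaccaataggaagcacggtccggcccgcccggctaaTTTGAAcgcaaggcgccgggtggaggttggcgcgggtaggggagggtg
The UHRF1 window holds the E2F core at 2 places, the POLE window at 1, and the CHR element lies within 10 bases of the gene start in INCENP and KIF18B.

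Of 11334 tested genes with a promoter in that table, 10.4% held the E2F core, 15.2% of the 1405 genes that were lower and 6.61% of the 1074 that were higher. The core was present in 27 of 49 replication promoters (55.1%) and in 7 of 51 mitosis promoters (13.7%). The CHR element was present in 40 of 51 mitosis promoters (78.4%), 2 of 49 replication promoters (4.08%) and 11.9% of all. CCAAT boxes were in 72.5% of mitosis promoters, 84.2% of 57 histone promoters and 36.6% of all. The list shares count all tested members with a promoter, called or not, so they do not describe the effect of hairpin 2. The replication list takes in E2F targets by its definition, so its share of the core was built in. A match describes the letters in the window and does not show that a factor binds there.

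UHRF1, which guides DNA methylation to new strands and carries 2 E2F cores in the window above, was at 9.63, 8.54 and 9.62 CPM in hairpin 2 and 90.0, 59.3 and 102 in scramble. The hairpin 2 libraries were alike and all low, and the log2 fold change was -3.18 ± 0.20 (adjusted p = 2.5e-05). MCM2, a helicase subunit that licenses origins, was at 20.6, 22.9 and 19.7 CPM against 143, 73.0 and 149. Scramble replicate 2 was lower than the other scramble libraries but above all hairpin 2 libraries, and the fall was 2.53 ± 0.24 (adjusted p = 0.000197). MCM5, of the same helicase, fell by 2.41 ± 0.22, and POLE, the leading-strand polymerase, by 1.92 ± 0.16 from 62.5, 46.4 and 60.0 to 12.9, 17.01 and 14.7 CPM. RRM2, the regulated subunit of ribonucleotide reductase, was at 9.37, 3.00 and 10.5 CPM against 105, 27.6 and 65.8, with wide spread in both groups but no overlap. DTL, an adaptor of a replication ubiquitin ligase, fell by 3.25 ± 0.41, and HELLS, a chromatin remodeller, by 2.44 ± 0.22. RPA2, a single-strand DNA binding protein, was the highest member at 0.31 ± 0.16 (adjusted p = 0.218), and its groups overlapped.

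Mitotic genes were lower in 55 of 60 tested members, with a median of -2.03. AURKB, the chromosomal passenger kinase, was at 2.18, 1.33 and 2.92 CPM in hairpin 2 and 22.6, 8.12 and 17.6 in scramble. All hairpin 2 libraries were low, and scramble replicate 2 was the lowest of its group, with a fall of 2.89 ± 0.38 (adjusted p = 0.000704). INCENP, its scaffold, was at 5.28, 5.47 and 6.52 CPM against 32.0, 18.1 and 29.9 and fell by 2.21 ± 0.22. MKI67, the proliferation marker, was at 20.6, 15.8 and 37.4 CPM against 210.4, 75.4 and 122 and fell by 2.46 ± 0.40 (adjusted p = 0.00196). HMMR, a spindle protein, was at 7.03, 2.26 and 15.01 CPM against 74.3, 19.7 and 41.7, where hairpin 2 replicate 3 came near scramble replicate 2; its fall of 2.47 ± 0.58 was not called without hairpin 2 replicate 1. Averaged over the list and set to the scramble mean, mitosis genes were at 0.704, -0.841 and 0.138 in the scramble libraries and at -2.10, -2.79 and -1.18 in the hairpin 2 libraries, on the log2 CPM scale. The number of mitosis members called dropped to 26 without hairpin 2 replicate 1, to 33 without scramble replicate 1 and to 36 without scramble replicate 3. In bulk RNA, fewer dividing cells and less of these transcripts per cell cannot be told apart.

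Histones of the replication-dependent clusters were lower in 58 of 67 tested members, with a median of -2.09. These messages are made in S phase. They took 0.151% ± 0.0397 of all counts in hairpin 2 and 0.611% ± 0.222 in scramble (SD, n = 3 each; exact permutation p = 0.1). HIST1H2BN was at 19.2, 11.8 and 18.8 CPM against 104, 48.3 and 96.0, low in all hairpin 2 libraries, and fell by 2.32 ± 0.28 (adjusted p = 0.000466). HIST1H3E did not pass, at 0.34 ± 0.26. Histone genes are near copies, so counts of single members are uncertain. Homologous recombination and Fanconi genes were lower in 25 of 31, with a median of -1.42. FANCA, of the Fanconi core complex, was at 9.86, 10.2 and 8.94 CPM against 29.4, 21.5 and 28.4 and fell by 1.45 ± 0.15 (adjusted p = 0.000259).

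**Figure D3:**
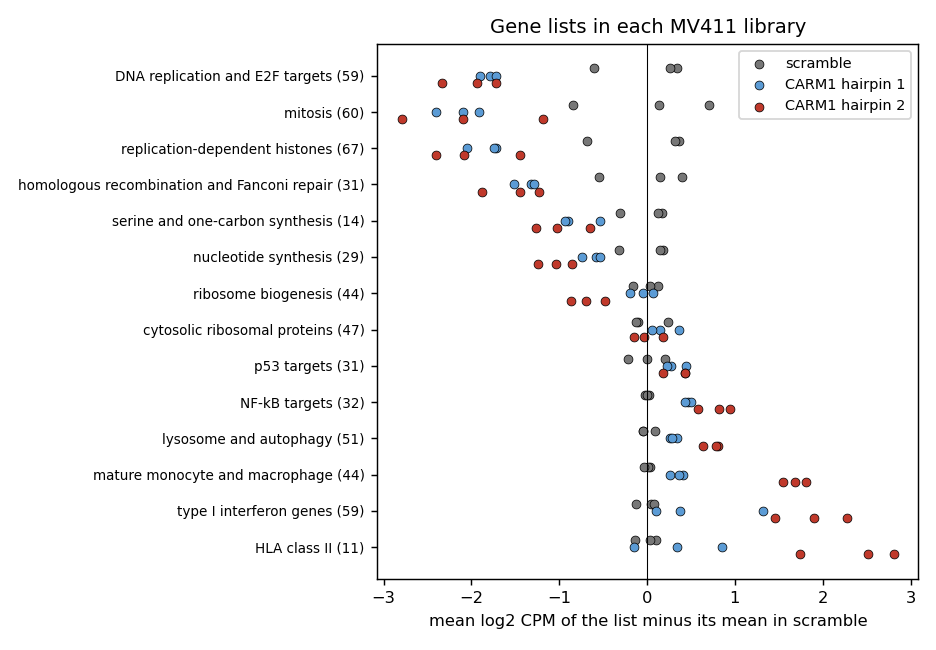
Mean log2 CPM of each gene list minus its mean in scramble (horizontal axis), 1 point a library, for 14 lists with the number of tested members in brackets. Scramble replicate 2 lies left of the other scramble points for replication, mitosis and histones; interferon, monocyte and HLA class II points of hairpin 2 lie right of all scramble and hairpin 1 points.

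Genes that feed nucleotide and amino acid supply fell as well. Nucleotide synthesis had 23 of 29 tested members lower and 1 higher, with a median of -0.834. PFAS, a purine synthesis enzyme, was at 13.8, 18.01 and 13.8 CPM in hairpin 2 and 42.8, 45.1 and 49.2 in scramble. The groups were tight and apart, with a fall of 1.59 ± 0.14 (adjusted p = 0.000193). PRPS2, which makes the ribose donor, fell by 2.13 ± 0.24 and DUT, a dUTPase, by 1.51 ± 0.19. The member that rose was SAMHD1, a dNTP hydrolase, from 334, 300.2 and 343 to 695, 478 and 599.9 CPM; its rise of 0.86 ± 0.18 was not called without hairpin 2 replicate 1. Serine and one-carbon genes were lower in 9 of 14 tested members, with a median of -1.05, among them TYMS (-1.85 ± 0.31) and MTHFD1 (-1.17 ± 0.19). PYCR1, the last enzyme of proline synthesis, was at 12.04, 11.6 and 11.9 CPM against 45.9, 44.8 and 52.96. Both groups were narrow, and the log2 fold change was -2.01 ± 0.13 (adjusted p = 2.5e-05). SLC7A5, the large neutral amino acid carrier, was at 39.9, 45.4 and 48.8 CPM against 151, 155 and 173 and fell by 1.84 ± 0.21 (adjusted p = 0.000338). Together 14 of 31 tested ATF4 targets and amino acid genes were lower, with a median of -0.726. That count was 24 with the replicate number as a block, 8 without scramble replicate 1, 7 without scramble replicate 3, 7 without hairpin 2 replicate 1 and 9 without hairpin 2 replicate 2. SLC7A11, the cystine carrier, was at 111, 62.2 and 163 CPM against 59.6, 36.3 and 48.6 and missed the threshold (1.22 ± 0.42, adjusted p = 0.0689; 0.0116 with the replicate block).

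MYC and most ribosome assembly factors fell, while no ribosomal protein passed. MYC, a transcription factor of growth, was at 105, 102 and 114 CPM in hairpin 2 and 236, 239.5 and 262 in scramble. Its groups were narrow and did not overlap, with a log2 fold change of -1.20 ± 0.12 (adjusted p = 0.000251). MYCL, a paralogue of MYC, rose from 2.15, 2.81 and 3.74 to 7.55, 8.91 and 5.73 CPM (1.34 ± 0.27, adjusted p = 0.00616). Of 19 tested genes of the MYC network, 8 were lower and 1 was higher, among them SRM, the spermidine synthase, at -0.99 ± 0.16. Ribosome biogenesis genes were lower in 32 of 44, with none higher and a median of -0.689. POLR1A, the large subunit of RNA polymerase I, was at 36.7, 52.2 and 49.0 CPM against 89.0, 86.6 and 90.2, with all hairpin 2 libraries low, and fell by 0.95 ± 0.15 (adjusted p = 0.00169). RRP9, a nucleolar U3 particle protein, was at 10.1, 10.7 and 10.5 CPM against 20.7, 19.2 and 20.4 and fell by 0.95 ± 0.13. The count of 32 became 12 without hairpin 2 replicate 1 and 20 without scramble replicate 3. None of 47 cytosolic ribosomal proteins passed in either direction, and their median was 0.00151. With the replicate block 1 of them, RPL32, was lower (adjusted p = 0.00809). Splicing factors and RNA binding proteins were lower in 13 of 48, with a median of -0.31. SNRPA1, a U2 particle protein, led at -0.96 ± 0.15 (adjusted p = 0.00146). That count was 21 with the replicate block and 3 without scramble replicate 3 or without hairpin 2 replicate 1, and leaving out scramble replicate 1, hairpin 2 replicate 2 or any hairpin 1 library gave 5 to 8.

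G1 regulators were lower in 13 of 25 tested members and higher in 2, and no rise in this list was called without scramble replicate 3, hairpin 2 replicate 1 or any hairpin 1 library. CDK2, the S phase kinase, was at 2.94, 2.96 and 4.71 CPM in hairpin 2 and 19.96, 11.0 and 21.2 in scramble and fell by 2.29 ± 0.28 (adjusted p = 0.000484). CDK4, its G1 relative, was at 30.7, 28.96 and 39.7 CPM against 83.9, 57.6 and 80.5, without overlap, and fell by 1.16 ± 0.18 (adjusted p = 0.00172). CDKN2C, a CDK4 and CDK6 inhibitor, fell too, by 1.75 ± 0.22. CDKN1A (p21) was at 139, 97.5 and 141 CPM against 94.3, 69.0 and 46.4; the rise of 0.85 ± 0.25 barely passed (adjusted p = 0.0382) and was lost under 9 of 18 alternative settings. The 13 lower members became 4 without hairpin 2 replicate 1, 7 without scramble replicate 3 and 8 without scramble replicate 1. Of 31 tested p53 targets, 7 were higher and 1 lower, with a median of 0.293. BTG2, an antiproliferative factor, was at 60.1, 45.4 and 49.7 CPM against 21.9, 21.1 and 19.1 and rose by 1.32 ± 0.14 (adjusted p = 0.000296). ZMAT3, an RNA binding protein, rose by 1.38 ± 0.18. The p53 count of 7 was 11 with the replicate block and 4 without hairpin 2 replicate 1 or without scramble replicate 3. BCL2, the antiapoptotic protein, was at 35.9, 39.2 and 60.5 CPM against 201, 188 and 212. It was low in all hairpin 2 libraries and fell by 2.15 ± 0.21 (adjusted p = 0.000218), while MCL1 and BCL2L1 did not pass, at 0.34 and 0.21.

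**Figure D4:**
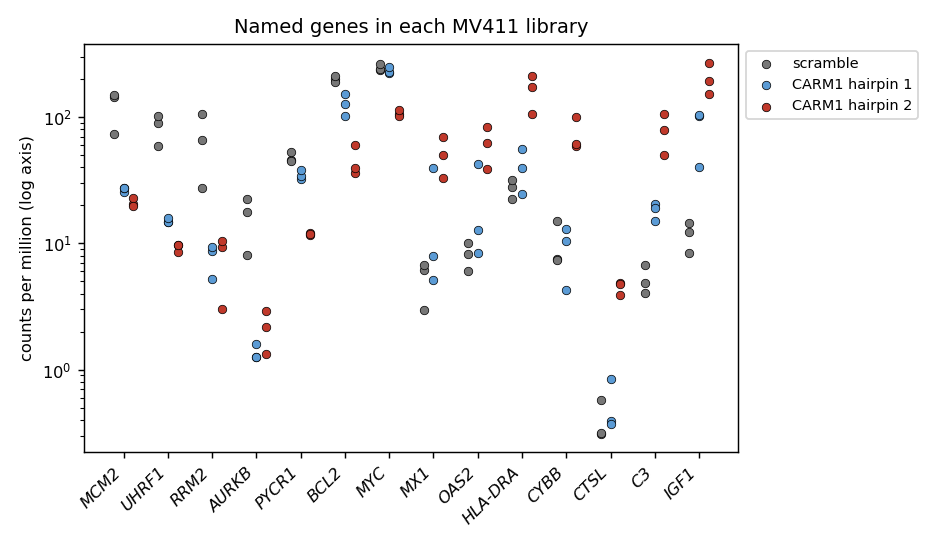
CPM on a log axis (vertical) of 14 named genes in every MV411 library, coloured by group. Hairpin 2 and scramble points are apart at each of the 14 genes, while hairpin 1 points lie near hairpin 2 for MCM2, UHRF1, RRM2 and AURKB and near scramble for MYC, CYBB and CTSL.

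Genes of mature monocytes and macrophages rose. Of 54 listed, 44 passed the filter on low counts, and 32 of these were higher and none lower, with a median of 1.40. A gene that passes the filter only where it is high had to differ, so the count describes the tested members and not the list. CYBB, the catalytic subunit of the phagocyte oxidase, was at 99.3, 58.5 and 61.0 CPM in hairpin 2 and 15.1, 7.56 and 7.31 in scramble. The lowest hairpin 2 library was well above the highest scramble library, with a rise of 2.87 ± 0.41 (adjusted p = 0.00104). CD68, a lysosomal marker of macrophages, was at 167, 160.5 and 128 CPM against 43.9, 44.4 and 45.6, narrow in scramble, and rose by 1.77 ± 0.17. CD14, the lipopolysaccharide co-receptor, was at 3.00, 2.40 and 2.23 CPM against 0.311, 0.357 and 0.579 and rose by 2.59 ± 0.41 (adjusted p = 0.00166). ITGAM (CD11b), the integrin gained as monocytes mature, was at 22.6, 19.6 and 13.0 CPM against 3.36, 2.27 and 1.04 and rose by 3.06 ± 0.38 (adjusted p = 0.000554). C1QA, a chain of the complement initiator made by macrophages, was at 12.3, 12.3 and 10.7 CPM against 0.841, 0.557 and 0.676. Both groups were tight, and the rise was 4.10 ± 0.21 (adjusted p = 1.25e-05). CSF1R, the macrophage growth factor receptor, rose by 1.06 ± 0.26, a call lost without scramble replicate 1 or 3 or hairpin 2 replicate 1. S100A8, a calcium binding protein of neutrophils and early monocytes, was at 0.66, 0.481 and 0.42 CPM against 0.343, 0.0223 and 0.0241 and did not pass (2.12 ± 0.80, adjusted p = 0.0928; 0.0311 with the replicate block), nor did FCGR1A (-0.11 ± 0.19).

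Complement genes were higher in 9 of 22 tested members, 4 of which (C1QA, C1QB, ITGAM and ITGAX) also stand in the monocyte list. C3AR1, the receptor for the C3a fragment, was at 4.85, 3.66 and 4.65 CPM against 0.778, 0.424 and 0.507 and rose by 2.96 ± 0.28 (adjusted p = 0.000197). In the list of lysosomal and autophagy genes, 33 of 51 were higher and 1 was lower, with a median of 0.667. PSAP, the precursor of the saposins, was at 629, 766 and 539.7 CPM against 103, 130.4 and 149. Each hairpin 2 library held more than 3-fold the highest scramble value, and the rise was 2.34 ± 0.20 (adjusted p = 0.00016). CTSB, a lysosomal protease, was at 395, 382 and 381 CPM against 122, 130.5 and 153 and rose by 1.52 ± 0.14. CTSL, of the same family, was at 4.88, 3.92 and 4.73 CPM against 0.311, 0.58 and 0.314 and rose by 3.46 ± 0.36 (adjusted p = 0.000265). PPT1, a palmitoyl thioesterase, went the other way, from 114, 88.3 and 115 to 48.5, 46.5 and 66.6 CPM (-0.97 ± 0.17, adjusted p = 0.00269). The 33 became 20 without hairpin 2 replicate 1.

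Primary granule and progenitor genes split. Of 17 tested, 6 were lower and 1 higher. CTSG, a granule protease of promyelocytes, was at 22.3, 17.3 and 31.8 CPM in hairpin 2 and 120.4, 79.1 and 90.6 in scramble. Hairpin 2 libraries were all low, with a fall of 2.02 ± 0.25 (adjusted p = 0.000531). PRSS57, another granule protease, fell from 43.1, 96.9 and 66.6 to 20.4, 19.2 and 6.02 CPM. CSF3R, the G-CSF receptor, rose from 45.8, 51.3 and 51.3 to 102, 117 and 88.6 CPM (1.05 ± 0.15, adjusted p = 0.001). ELANE, PRTN3 and AZU1, which encode azurophil granule proteins, did not pass, at 0.20, 0.10 and -0.13. The count of 6 was 3 without hairpin 2 replicate 1, scramble replicate 1 or scramble replicate 3. In the list of HOXA and KMT2A self-renewal genes, 4 of 20 tested were lower and 2 higher, where 10.2% and 8.38% of all genes were. Its lowest member was BCL2 (-2.15), described above. In this list 2 were lower without scramble replicate 1, hairpin 1 replicate 1 or 2, or hairpin 2 replicate 1. HOXA10 fell from 21.7, 23.7 and 28.2 to 12.4, 11.4 and 14.8 CPM (-0.93 ± 0.16, adjusted p = 0.00246). HOXA9 and MEIS1, the best known targets of KMT2A fusions, did not pass, at -0.29 ± 0.15 and 0.00 ± 0.12. FLT3, mutated in this line, was at 236, 162 and 256 CPM against 424, 273 and 357 (-0.69 ± 0.20, adjusted p = 0.035). Its call was lost under 8 of 18 alternatives, among them leaving out scramble replicate 1 or 3, any hairpin 1 library, or hairpin 2 replicate 1 or 2 (adjusted p up to 0.118). Of 34 myeloid transcription factors 4 were higher and 1, FLI1, lower, where 8.38% and 10.2% of all genes were, with 7 higher under the replicate block and 2 higher without scramble replicate 1, scramble replicate 3 or hairpin 2 replicate 1. The FLI1 call was lost under 13 of 18 alternatives. Leaving out scramble replicate 1 or 3, any hairpin 1 library or any hairpin 2 library was among them. KLF4, which drives monocyte fate, rose from 1.49, 1.92 and 1.91 to 5.61, 4.96 and 3.76 CPM (1.42 ± 0.22, adjusted p = 0.00145), and SPI1 (PU.1) was 0.24 ± 0.21 and did not pass.

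Type I interferon genes rose widely. Interferon signalling acts through a factor complex that holds STAT2 and IRF9 on an element of paired GAAA blocks. Promoters of the best ranked members that hold GAAA, any 2 bases and GAAA again on either strand are shown because these genes moved together, with the element in capitals, for LGALS3BP (chr17:78979874-78980173, minus strand), IFIH1 (chr2:162318635-162318934, minus strand) and PARP12 (chr7:140062902-140063201, minus strand).
LGALS3BP: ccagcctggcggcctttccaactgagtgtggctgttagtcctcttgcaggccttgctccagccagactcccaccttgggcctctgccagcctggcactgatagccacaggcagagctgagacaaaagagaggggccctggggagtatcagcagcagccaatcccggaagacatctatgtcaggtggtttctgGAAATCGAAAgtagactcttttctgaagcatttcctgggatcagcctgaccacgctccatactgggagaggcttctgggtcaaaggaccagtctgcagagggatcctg
IFIH1: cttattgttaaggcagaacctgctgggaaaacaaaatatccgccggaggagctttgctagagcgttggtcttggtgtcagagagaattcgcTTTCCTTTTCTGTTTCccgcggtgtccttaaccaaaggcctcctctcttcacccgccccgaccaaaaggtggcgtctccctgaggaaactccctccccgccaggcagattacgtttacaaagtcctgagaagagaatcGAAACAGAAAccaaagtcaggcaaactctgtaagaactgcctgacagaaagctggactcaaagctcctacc
PARP12: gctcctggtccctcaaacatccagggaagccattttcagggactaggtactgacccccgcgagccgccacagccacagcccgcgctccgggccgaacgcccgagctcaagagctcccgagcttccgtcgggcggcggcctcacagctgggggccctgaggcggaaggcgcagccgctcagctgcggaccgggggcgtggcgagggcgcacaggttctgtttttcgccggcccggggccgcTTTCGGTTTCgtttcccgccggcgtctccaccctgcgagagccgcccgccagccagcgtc
The element was in 29 of 47 interferon promoters (61.7%), in 3.02% of all tested genes with a promoter, in 5.96% of genes that were higher and in 2.49% of those that were lower. A loose NF-kB pattern (GGG and CC with 5 bases between) was in 23 of 26 NF-kB target promoters (88.5%) and in 72.4% of all. These list shares also count members called or not and do not describe the effect of hairpin 2.

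Of 59 tested interferon genes, 48 were higher and none lower, with a median of 1.71. IFIT1, an RNA-binding antiviral protein, was at 25.9, 6.25 and 12.9 CPM in hairpin 2 and 0.374, 0.535 and 0.483 in scramble. Hairpin 2 replicate 2 was the lowest of its group, yet more than 10-fold above every scramble library, and the rise was 4.99 ± 0.76 (adjusted p = 0.00144). MX1, a GTPase that blocks virus replication, was at 68.9, 32.7 and 50.3 CPM against 2.99, 6.13 and 6.69 and rose by 3.25 ± 0.68 (adjusted p = 0.00774). OAS2, which makes the activator of RNase L, was at 83.0, 38.8 and 61.9 CPM against 6.07, 8.27 and 10.0 and rose by 2.91 ± 0.54. IFIH1 (MDA5), a sensor of double-stranded RNA, was at 44.6, 26.9 and 29.6 CPM against 7.91, 9.21 and 10.9, without overlap, and rose by 1.85 ± 0.22 (adjusted p = 0.000434). STAT2 was at 224, 216 and 219.5 CPM against 105, 113 and 117. Both groups were narrow, and the rise was 0.98 ± 0.12 (adjusted p = 0.00046). IRF9, its partner in that complex, rose by 1.49 ± 0.25. IRF1, IRF7 and BST2 did not pass, at 0.03, 0.80 and 0.39. IFITM2 was -0.32 ± 0.12 (adjusted p = 0.0828). With the replicate block IRF7, BST2 and IFITM2 passed (adjusted p = 0.0465, 0.0336 and 0.0354).

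HLA class II genes were higher in 10 of 11 tested members, with a median of 2.38. HLA-DPA1, a chain of the class II pair, was at 61.4, 81.4 and 38.7 CPM in hairpin 2 and 5.95, 6.91 and 8.54 in scramble. The groups were far apart, with a rise of 3.08 ± 0.31 (adjusted p = 0.000218). HLA-DRA was at 173, 211 and 105 CPM against 22.3, 28.1 and 32.0 and rose by 2.57 ± 0.32 (adjusted p = 0.000531). HLA-DMB, part of the peptide exchanger, rose by 3.24 ± 0.33, and CD74, the invariant chain, by 1.17 ± 0.21. CIITA, the class II transactivator, was at 46.2, 83.7 and 26.3 CPM against 10.7, 28.9 and 18.7 and did not pass (1.42 ± 0.45, adjusted p = 0.0504). It passed under 9 of 18 alternatives, with an adjusted p of 0.0058 under the replicate block. Of 18 class I and peptide loading genes 6 were higher and 2 lower, with a median of 0.462. HLA-E was at 302, 310.0 and 294 CPM against 187, 181 and 201, apart and narrow, and rose by 0.67 ± 0.12 (adjusted p = 0.00368). PSME1, a proteasome activator subunit, fell by 0.84 ± 0.18, a call lost without hairpin 2 replicate 1. The 6 became 1 without scramble replicate 1, 2 without hairpin 2 replicate 1 and 3 without scramble replicate 2. HLA genes are polymorphic and alike, so reads may be shared among them.

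NF-kB targets were higher in 13 of 32 tested members and none was lower, with a median of 0.608. CXCL8, the neutrophil chemokine, was at 8.05, 4.62 and 6.89 CPM in hairpin 2 and 0.685, 0.959 and 0.7 in scramble. All hairpin 2 libraries were higher, with a rise of 3.05 ± 0.29 (adjusted p = 0.000197). IL1B was at 10.3, 5.40 and 5.94 CPM against 2.12, 1.67 and 1.23 and rose by 2.11 ± 0.30. ICAM1, an adhesion molecule, rose from 17.3, 16.0 and 16.6 to 52.7, 58.4 and 29.9 CPM (1.496 ± 0.22, adjusted p = 0.00128). TNF, at 10.1, 7.21 and 8.38 CPM against 8.81, 7.54 and 9.34, and RELA (-0.03 ± 0.14) did not pass. Among cytokine and growth factor receptors and ligands, 15 of 26 were higher and 2 lower. TGFBR2 was at 101, 90.0 and 97.7 CPM against 33.1, 32.6 and 39.0 and rose by 1.46 ± 0.12 (adjusted p = 0.00016). IL10RA, a chain of the interleukin 10 receptor, was at 55.8, 63.8 and 47.5 CPM against 12.9, 18.2 and 17.2, without overlap, and rose by 1.79 ± 0.17. IGF1R, the receptor of IGF1, went the other way, from 10.5, 11.1 and 12.3 to 3.63, 5.96 and 4.34 CPM (-1.28 ± 0.19, adjusted p = 0.00129).

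Iron and redox genes were higher in 8 of 22 tested NRF2 targets and ferritins, with none lower, and in 4 without hairpin 2 replicate 1. FTH1, the ferritin heavy chain, was at 589.9, 438 and 518 CPM in hairpin 2 and 158, 146 and 188 in scramble. It rose by 1.65 ± 0.19 in groups that stood wide apart (adjusted p = 0.000357). HMOX1, which degrades haem, was at 6.63, 4.55 and 6.18 CPM against 0.56, 0.29 and 0.193 and rose by 4.09 ± 0.46. Of 27 glucose genes, 5 were higher and 3 lower, where 8.38% and 10.2% of all genes were. The same shares of all genes stand beside the sterol, chaperone and unfolded protein counts below. The 5 became 2 without scramble replicate 3 or hairpin 2 replicate 1 and 0 with all 27 libraries in the fit, and the 3 became 1 without hairpin 2 replicate 1 and 5 without hairpin 2 replicate 3. SLC2A1 (GLUT1) was at 16.5, 13.3 and 18.6 CPM against 47.2, 38.2 and 42.9 and fell by 1.41 ± 0.15 (adjusted p = 0.000301), while NDRG1, a hypoxia-induced gene, rose by 0.70 ± 0.12, which was not called with all 27 libraries in the fit. Sterol synthesis had 2 of 30 lower, and FDPS fell by 0.95 ± 0.15. The sterol count was 9 with the replicate block, which also gave 4 higher, 5 without hairpin 2 replicate 3, and 1 without scramble replicate 3, hairpin 1 replicate 1 or 2, or hairpin 2 replicate 1. Chaperones of the heat shock list were lower in 8 of 25, in 16 with the block and in 1 without scramble replicate 3 or without hairpin 2 replicate 1. Leaving out scramble replicate 2 gave 14 and hairpin 2 replicate 3 gave 12, and each of the other libraries gave 2 to 4. The unfolded protein response had 1 higher, HSPA5 (0.71 ± 0.18), and 2 lower of 23, led by EDEM1 (-1.37 ± 0.17). The HSPA5 call was lost without scramble replicate 1, without hairpin 2 replicate 1 and with all 27 libraries. The 2 lower became 6 without hairpin 2 replicate 3, and 1 without scramble replicate 2 or 3 or hairpin 2 replicate 1 or 2.

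Over all genes tested 8.38% were higher and 10.2% lower. Oxidative phosphorylation genes had 1 higher and 3 lower of 44, the proteasome 0 higher and 3 lower of 34, and no mitochondrial message of 13 passed. The 3 lower oxidative phosphorylation genes became 1 without scramble replicate 1 or 3 or hairpin 2 replicate 1, and the 1 higher became 2 without hairpin 2 replicate 2. The proteasome count was 0 without scramble replicate 3, without hairpin 2 replicate 1 or with only the 6 libraries compared. It was 1 without scramble replicate 1, hairpin 1 replicate 1 or hairpin 2 replicate 2, 6 without hairpin 2 replicate 3 and 7 without scramble replicate 2. None of 5 abundant structured RNAs (such as 7SK and RMRP) and neither mitochondrial ribosomal RNA passed. With the replicate block both ribosomal RNAs, MT-RNR1 and MT-RNR2, were higher (adjusted p = 0.00676 and 0.00154). Immediate early genes had 1 higher and 3 lower of 27. The 3 became 1 without scramble replicate 3, any hairpin 1 library, or hairpin 2 replicate 1 or 2, and the 1 became 2 without scramble replicate 2 or hairpin 2 replicate 2. Of 16 Polycomb and DNA methylation genes, 5 were lower and 1 higher, with 3 lower without scramble replicate 3 or hairpin 2 replicate 1. The lowest was UHRF1 (-3.18), which also stands in the replication list. EZH2, the H3 lysine methyltransferase of PRC2, was at 13.4, 10.3 and 13.1 CPM in hairpin 2 and 46.6, 22.9 and 28.3 in scramble and fell by 1.41 ± 0.24 (adjusted p = 0.00234). SWI/SNF genes had 5 lower and 2 higher of 23, with 9 lower under the replicate block and 2 lower without scramble replicate 1, scramble replicate 3 or hairpin 2 replicate 1. SMARCD3, a variant subunit, rose from 2.27, 3.61 and 3.62 to 9.53, 10.7 and 7.52 CPM (1.54 ± 0.22, adjusted p = 0.00104). BCL7A, another subunit, fell by 1.08 ± 0.17 (adjusted p = 0.00192).

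Among non-coding genes, NCF1C and NCF1B, pseudogene copies of the oxidase subunit gene NCF1, rose by 2.46 ± 0.26 and 2.15 ± 0.28. NCF1 itself rose by 2.46 ± 0.26, and reads among these near-identical copies cannot be placed with certainty. NAPSB, a transcribed pseudogene, rose from 19.5, 19.0 and 15.9 to 47.0, 42.7 and 38.1 CPM, which was not called with all 27 libraries in the fit. MIR17HG, the host transcript of the miR-17-92 cluster, was at 9.83, 7.10 and 11.6 CPM against 25.5, 17.3 and 22.2. All hairpin 2 libraries were lower, with a fall of 1.19 ± 0.21 (adjusted p = 0.00323). RP11-4O1.2, a sense-strand non-coding gene, was at 13.5, 16.8 and 15.7 CPM against 41.2, 40.7 and 39.0 and fell by 1.39 ± 0.16 (adjusted p = 0.000423). Whether counting used strand was not given in the sources used here, so genes that overlap others may share reads.

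Hairpin 2 was set directly against hairpin 1, since both reduce CARM1. Between them 2046 genes (11.5%) passed, 1044 (5.86%) higher and 1002 (5.62%) lower in hairpin 2. These counts fell to 461 and 412 without hairpin 1 replicate 1, to 621 and 588 without hairpin 1 replicate 2, to 569 and 498 without hairpin 1 replicate 3 and to 527 and 431 without hairpin 2 replicate 1. Between the hairpins 5 of 59 replication genes and none of 60 mitosis genes were lower in hairpin 2, with none higher. Against scramble, hairpin 1 had 1159 genes past the threshold (6.51%), 423 higher (2.37%) and 736 lower (4.13%), from the same scramble libraries. The medians of the mitosis list were -2.03 for hairpin 2 and -2.40 for hairpin 1, with 55 and 54 of 60 lower. Monocyte genes had medians of 1.40 and 0.282, with 32 and 9 of 44 higher. Monocyte genes were higher in hairpin 2 than in hairpin 1 in 25 of 44, HLA class II in 10 of 11 and interferon genes in 27 of 59 with 1 lower. For ribosome biogenesis, 23 of 44 were lower and 1 higher. Immediate early genes were lower in 10 of 27.

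CYBB was at 10.3, 13.0 and 4.30 CPM in hairpin 1, within or near the scramble range, and hairpin 2 exceeded hairpin 1 by 2.98 ± 0.41 (adjusted p = 0.00158). HLA-DPA1 was at 6.65, 9.89 and 5.15 CPM in hairpin 1, and hairpin 2 exceeded it by 3.06 ± 0.31 (adjusted p = 0.000392). LRP1 (3.11, 7.38 and 2.14 CPM in hairpin 1) and ABCG1, a cholesterol exporter (1.60, 3.49 and 4.51 CPM), differed by 3.32 ± 0.57 and 3.27 ± 0.41. Hairpin 1 lay near the scramble range at LRP1. ABCG1 rose by 2.33 with hairpin 2 against scramble, less than it differed between the hairpins. By the fit, hairpin 1 was thus below scramble at ABCG1. MYC was at 221, 228 and 247 CPM in hairpin 1, and hairpin 2 minus hairpin 1 was -1.12 ± 0.12 (adjusted p = 0.000638). CTSG was at 87.1, 74.3 and 113 CPM, and the difference was -1.94 ± 0.25. KIAA0101 was at 10.2, 7.99 and 13.5 CPM in hairpin 1, between the other groups, and the difference was -2.24 ± 0.38. EMID1 moved in opposite directions against scramble (1.21 ± 0.15 with hairpin 1, adjusted p = 0.00266), at 22.9, 20.8 and 21.3 CPM in hairpin 1, 8.10, 10.8 and 9.24 in scramble and 5.25, 5.25 and 5.97 in hairpin 2, with a difference between the hairpins of -1.98 ± 0.15 (adjusted p = 0.000111). MX1 was at 5.11, 7.87 and 39.8 CPM in hairpin 1, spread over the range of both other groups, and the hairpins did not differ past the threshold (1.52 ± 0.63, adjusted p = 0.155). The interferon list as a whole stood at 0.107, 0.38 and 1.32 above the scramble mean in the hairpin 1 libraries (mean log2 CPM), against 2.28, 1.46 and 1.90 in hairpin 2.

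The effect of hairpin 2 was also compared with its effect in the other lines, by an interaction term over all 27 libraries. Against MOLM13, 15 of 21262 genes (0.0705%) passed, 11 (0.0517%) with a higher and 4 (0.0188%) with a lower change in MV411. Of these 15, 5 are interferon genes: IFIT1, IFIT2, USP18, HERC5 and PARP12, named after their values were seen. In MOLM13, IFIT1 was at 0.431, 0.75 and 4.32 CPM with hairpin 2 and at 0.652, 15.3 and 1.42 with scramble, on the scale of the fit of all libraries. Scramble replicate 2 of MOLM13 stood far above its other scramble libraries. The changes were -1.62 ± 0.84 in MOLM13 (adjusted p = 0.196) and 4.99 ± 0.76 in MV411, a difference of 6.64 ± 1.28 in the fit of all libraries (adjusted p = 0.0381). Without that MOLM13 library the difference was 4.19 with an adjusted p of 0.285, and 1 gene in all passed. Without MV411 hairpin 2 replicate 1 or scramble replicate 2 the count was 2, without MV411 scramble replicate 1 or 3 it was 3, and without hairpin 2 replicate 3 it was 4. PARP12 was at 7.15, 11.4 and 16.1 CPM with hairpin 2 and 7.67, 11.7 and 8.60 with scramble in MOLM13, which overlap, and differed between the lines by 2.22 ± 0.42 (adjusted p = 0.0361). In the interferon list, 5 of 60 tested genes were higher and 1 lower in MOLM13, with a median of 0.0677, where 14.4% of all genes passed, 6.61% higher and 7.77% lower. MOLM13 scramble replicate 2 was the highest of its 3 scramble libraries at 56 of the 60 genes. Without it 10 were higher and 0 lower in MOLM13, with a median of 0.823. In that fit 640 of all 21925 genes tested were higher and 930 lower. In SKNO1, 9 were higher and 1 lower, with a median of 0.804, where 7.66% of all genes passed, 3.97% higher and 3.69% lower. SULT1A1, a sulfotransferase, was at 51.8, 50.9 and 56.3 CPM against 19.1, 19.5 and 24.02 in MV411 and rose by 1.35 ± 0.14 there. Its change in MOLM13 was -0.12 ± 0.20, and the lines differed by 1.49 ± 0.28 (adjusted p = 0.0361). LPXN, an adhesion adaptor of blood cells, fell by 0.71 ± 0.13 in MV411 and rose by 0.66 ± 0.19 in MOLM13 (adjusted p = 0.0203). Without MOLM13 scramble replicate 2 the differences at PARP12, SULT1A1 and LPXN no longer passed (adjusted p = 0.152, 0.0911 and 0.127).

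Against SKNO1, 197 genes (0.927%) passed, 80 (0.376%) with a higher and 117 (0.55%) with a lower change in MV411. Without MV411 scramble replicate 3 the count was 78 and without hairpin 2 replicate 1 it was 103. Replication genes held 12 of these and mitosis genes 6. POLE was at 355, 375 and 404 CPM with hairpin 2 and 262, 229.8 and 275 with scramble in SKNO1. It changed by 0.56 ± 0.21 there and by -1.92 ± 0.16 in MV411, a difference of -2.46 ± 0.31 (adjusted p = 0.00028). RRM2 differed by -2.67 ± 0.54 and UHRF1 by -1.999 ± 0.34. The medians of the replication list were -1.98 in MV411, -1.57 in MOLM13 and -0.963 in SKNO1. On the rising side, BIRC3, an apoptosis inhibitor induced by NF-kB, was at 11.2, 8.25 and 5.57 CPM against 1.84, 2.19 and 1.79 in MV411 and at 26.6, 33.6 and 27.2 against 57.2, 27.5 and 55.2 in SKNO1, a difference of 2.80 ± 0.49 (adjusted p = 0.00488). PDE4B, a cyclic AMP phosphodiesterase, differed by 2.17 ± 0.39. SKNO1 was grown with GM-CSF and MV411 without it. Mitochondrial ribosomal RNA also took 0.0747%, 0.105% and 0.0942% of counts in SKNO1 scramble, against 27.8%, 26.1% and 24.9% in MV411 scramble. In hairpin 2 libraries it took 0.189%, 0.0721% and 0.163% in SKNO1 and 33.2%, 29.4% and 30.7% in MV411. Where that gap came from was not tested. The line, the cytokine and whatever lies behind that gap cannot be told apart. CARM1 itself did not differ past the threshold between lines, at -0.33 ± 0.33 against MOLM13 (adjusted p = 0.887) and -0.27 ± 0.33 against SKNO1 (adjusted p = 0.836).

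**Figure D5:**
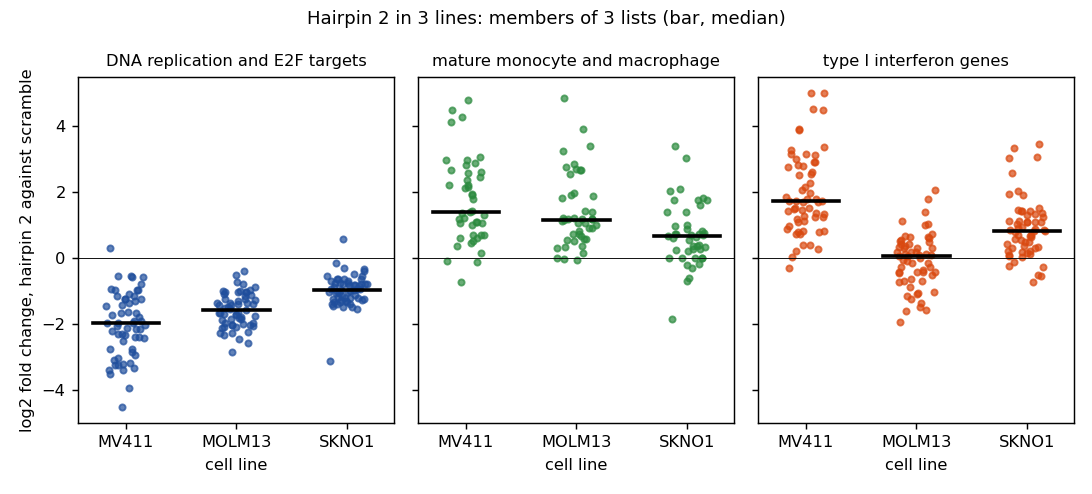
Log2 fold change of hairpin 2 against scramble (vertical axis) in MV411, MOLM13 and SKNO1 for the members of 3 lists tested in MV411; points are genes and bars are medians. Replication genes lie lowest in MV411 and closest to 0 in SKNO1, and interferon genes lie highest in MV411, by their medians. The MOLM13 interferon bar is at 0.0672. Over the 60 interferon genes tested in the fit of all libraries, the MOLM13 median is 0.0677 with scramble replicate 2 of that line and 0.823 without it.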

How the data were processed

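Total RNA libraries (TruSeq stranded with Ribo-Zero, per the labels' protocols) were quantified by the authors as RSEM expected counts per gene after alignment with STAR 2.5.3 to GRCh38.p7, per the submitters' processing notes; the RSEM version and strand setting were not given in the sources used here. The deposited expected counts of 57992 genes in 27 columns (30.39% of non-zero values not whole) were rounded. In R 4.3.3, edgeR 4.0.16 fitted the 9 MV411 libraries in 3 groups with TMM scaling, a low-count filter (filterByExpr, minimum count 10, total 15), its quasi-likelihood test and Benjamini-Hochberg adjustment at 0.05. All adjusted p-values come from it. Errors after log2 changes are standard errors of the fit. Values and tests in MOLM13 and SKNO1, and the interactions, come from 1 fit of all 27 libraries in 9 groups. The procedure was tested on simulated data. Gene types came from GENCODE 29 (57388 identifiers matched) and promoters from RefSeq.

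Genes were named by rules on rank within the comparison, the 40 lists and the interactions: up to 12 coding and 3 non-coding genes a direction with the largest change, mean log2 CPM of at least 3 and groups that do not overlap; for each list, by smallest p, up to 4 genes on the side where most calls lay and 1 on the opposite side; up to 5 a direction between the hairpins and 4 in each interaction; and the arginine methyltransferases and defining markers. Replication-dependent histones were left out of the rankings by size of change, between the hairpins and between lines too. The members and lists were chosen with earlier results of these data known, and some lists share members. CD14, CSF1R, S100A8, FCGR1A, IFIT1, PARP12, IRF9, IRF1, IRF7, BST2, CD74, CIITA, TNF, RELA, NCF1, MCL1, BCL2L1, ELANE, PRTN3 and AZU1 were named after their values were seen. Some genes that the rules chose are not reported here.

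Deviations of same-numbered hairpin 2 and scramble libraries from their group means correlated at 0.204, 0.598 and 0.268, each over 0.1. Hairpin 2 replicate 3 correlated more with scramble replicate 1 (0.312) than with its own number. The other differently numbered libraries of these groups correlated negatively, from -0.524 to -0.113. The numbers therefore mark a shared part of the spread, though not cleanly for hairpin 2 replicate 3. The labels state no pairing, and the main fit did not use the numbers. Used as a block, they gave 2225 genes higher and 2644 lower, against 1493 and 1820 in the main fit. Alternatives were DESeq2 1.42.0, limma-voom (limma 3.58.1), RLE size factors, other filters, other sets of libraries, the replicate number as a block, and leaving out each MV411 library.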

Additional observations from a re-analysis of the deposited data

Results flagged for a closer look

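Named genes are given here where the change with hairpin 2 differed between MV411 and another line in the interaction test (edgeR, Benjamini-Hochberg adjusted), as log2 change in MV411 minus that in the other line. Groups of 3 libraries were too small to test for outlying samples.

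Against MOLM13, the interferon genes IFIT1 (6.64), IFIT2 (6.04), HERC5 (4.17), USP18 (3.31) and PARP12 (2.22) and the sulfotransferase SULT1A1 (1.49) had a higher change in MV411, and the non-coding gene RP11-4O1.2 (-1.66) and LPXN (-1.35) a lower one. Without MOLM13 scramble replicate 2, none of these 8 passed: the differences were 4.19 for IFIT1, 4.17 for IFIT2, 2.56 for HERC5, 2.92 for USP18, 2.03 for PARP12, 1.57 for SULT1A1, -1.63 for RP11-4O1.2 and -1.39 for LPXN, with adjusted p from 0.052 to 0.285.

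Against SKNO1, cell division genes had a lower change in MV411: RRM2 (-2.67), POLE (-2.46), CDKN2C (-2.17), CENPM (-2.13), AURKB (-2.13), KIF18B (-2.04), UHRF1 (-1.999), MCM5 (-1.70), MCM2 (-1.67) and INCENP (-1.40). AFF3 (-2.32), MXD3 (-1.55), RP11-4O1.2 (-1.38) and SESN2 (-1.36) were on the same side. Genes with a higher change in MV411 were CTSL (3.31), ME1 (2.83), BIRC3 (2.80), IFI30 (2.34), PAQR8 (2.26), PDE4B (2.17), HLA-DPA1 (2.08), CXCL8 (1.87), PSAP (1.84) and SULT1A1 (1.11). Of these, UHRF1, RRM2, MCM2, MCM5, POLE, RP11-4O1.2, MXD3, CDKN2C, BIRC3 and PDE4B passed under all 17 alternatives of that comparison. SULT1A1 lost its call under 9 of them.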

How the results depend on the processing

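The direction of no called result reversed under any alternative run. Of 188 genes chosen for naming and called between hairpin 2 and scramble, 134 passed under all 18 alternatives and 54 missed the threshold under at least 1; of 64 not called, 24 passed under at least 1. The CARM1 change ranged from -3.16 to -2.87. With only the 6 libraries compared, 1156 genes were lower and 1014 higher. Leaving out 1 library gave 811 to 1542 higher and 905 to 2006 lower, and asking for a fold change over 2 gave 763 and 812. With the replicate number as a block, 2225 genes were higher and 2644 lower. Besides the list counts given with it, the block gave 7 lower proteasome genes, 6 lower and 3 higher in the unfolded protein response, 5 lower in glycolysis, 4 higher in oxidative phosphorylation, 3 higher immediate early genes, and 2 higher each in the BCL2 family, granule and Polycomb lists, with 2 lower myeloid factors. Leaving out 1 library gave 0 to 2 higher in the HOXA list, 0 to 2 higher and 1 to 2 lower in the BCL2 family, 0 to 1 lower p53 targets, and 1 to 2 each of lower receptors, lower class I genes, higher granule genes and higher SWI/SNF genes. The EMID1 fall was not called with all 27 libraries (adjusted p = 0.061). Between the hairpins, 684 genes were higher with all 27 libraries in the fit, and 575 were higher and 376 lower at a fold over 2. Leaving out 1 library gave 461 to 1106 higher and 412 to 1064 lower. Same-numbered libraries of the hairpins correlated at 0.0711, 0.3 and 0.32, not all over 0.1, and the replicate block gave 1729 and 1787. The interaction with MOLM13 counted 0 genes with only the 12 libraries compared (limma-voom counted 13 and 1387 had an unadjusted p under 0.05 in the fit of all libraries), 28 with the replicate block, 66 with DESeq2, 300 with no filter on low counts, 1 without MOLM13 scramble replicate 2 (chosen after seeing the data) and 2 to 19 on leaving out an MV411 library. That with SKNO1 counted 425 with only the libraries compared, 482 with the block, 580 with DESeq2, 808 with no filter and 78 to 227 on leaving out a library. The cause of these shifts was not tested. Scaling moved the median change of all genes by little, and without scramble replicate 2 the share of called genes that were higher was 40.0%, against 45.1%. The 3 libraries a group limit the precision.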
